A study of Mus musculus with 6 samples.

Results

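Replication-dependent histone genes were examined in the mouse B cell line 230-238, which carried a plasmid for GFP, a fluorescent marker, with or without FOG1. FOG1 is encoded by Zfpm1 and acts with GATA factors on transcription. The members were the probe sets of the array with at least 1 annotated symbol that begins with Hist1h, Hist2h, Hist3h, Hist4h, H2ac, H2bc, H3c or H4c followed by a letter or digit. This gave 44 of 34760 probe sets, of which 22 were annotated to 1 gene and 22 to several genes. The current symbols of the former Hist3h and Hist4h genes and of the linker histones do not begin in this way, so these genes were not members. Together the member probe sets named 57 histone genes, 47 on chromosome 13 and 10 on chromosome 3, and only 22 of these genes had a probe set of their own. Those 22 comprised 4 H2A, 9 H2B, 3 H3 and 6 H4 genes. The control group was 230-238 cells infected with a plasmid for GFP (3 arrays), and the other group was the same line infected with a plasmid for GFP and FOG1 (3 arrays). Cells of both groups grew for 3 days in RPMI1640, were then selected by their fluorescence, and grew for 4 further days before RNA was taken. The labels name the samples biological replicates but do not say whether they were infected separately or whether the line is clonal, so each p-value reflects only how far these 6 samples scatter, which may be technical.

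The core histones H2A, H2B, H3 and H4 package DNA into nucleosomes, in which a tetramer of H3 and H4 is flanked by dimers of H2A and H2B. The replication-dependent genes supply them during S phase, when each new DNA strand needs histones, and their RNA is degraded when replication ends. Their messenger RNAs usually lack a poly(A) tail and end in a stem-loop bound by the protein SLBP. The genes lie in clusters, many as divergent H2A and H2B neighbours that share the DNA between them, and the copies of each core type encode nearly the same protein. Amplification with a whole-transcript kit, as used here, does not rely on a poly(A) tail. In RNA from a whole culture, a larger share of cells in S phase and more histone RNA in each such cell cannot be told apart.

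The values are log2 signals, which ran from 3.12 to 14.07 over the 6 arrays, and any 2 arrays correlated at 0.9925 to 0.9960 over all probe sets. Zfpm1 was higher on every FOG1 array, with a log2 change of 0.74 (limma with Benjamini-Hochberg adjustment, adjusted p = 0.0038). Its mean signal was 9.44 with GFP, at percentile 83.8 of all probe sets, and 10.18 with FOG1. The labelled cell type was borne out by its markers: 13 of 14 measured B cell markers had a mean signal at or above the median of all values, 6.999, among them Cd79a, Pax5 and Ebf1. None of the 14 passed the test. Groups did not overlap for 5 of them, beside 19.6% of all probe sets in either direction. Of the 5, Cd79a (log2 change -0.41), Ms4a1 (-0.34) and Cd79b (-0.16) were lower and Rag2 (0.23) and Il7r (0.20) higher with FOG1 (limma adjusted p = 0.088 to 0.33). Their part in the histone differences was not tested. A mean signal at or above that median was also seen for 2 of 9 T and NK cell, 1 of 10 myeloid and 1 of 6 erythroid and megakaryocyte markers. Averaged over its members, the T and NK list lay at 6.19 to 6.24 on the GFP arrays and 6.17 to 6.25 on the FOG1 arrays, the myeloid list at 6.18 to 6.23 and 5.9985 to 6.08, and the erythroid and megakaryocyte list at 6.17 to 6.20 and 6.12 to 6.26. No detection call was used, so none of these genes can be said to be absent. The myeloid list held the only listed marker that passed the test, Itgam, which fell by 1.11 on the log2 scale (limma adjusted p = 0.0075). No listed gene passed with the replicate number as a block, or without GFP replicate 1, GFP replicate 3 or FOG1 replicate 2, so that call was lost there.

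The DNA in front of 4 members is shown, the 1-gene member of each core type with the smallest unadjusted p. Each sequence is the 250 bases before the gene's start in the RefSeq table of build GRCm38.p6, written 5′ to 3′ in the direction of the gene. Capitals mark TATAAA, the core of a TATA box, CCAAT, which binds NF-Y, and ATTTGCAT, the octamer bound by OCT1 and known from H2B promoters, each on either strand.
H2ac4, chr13:23750838-23751087, plus strand: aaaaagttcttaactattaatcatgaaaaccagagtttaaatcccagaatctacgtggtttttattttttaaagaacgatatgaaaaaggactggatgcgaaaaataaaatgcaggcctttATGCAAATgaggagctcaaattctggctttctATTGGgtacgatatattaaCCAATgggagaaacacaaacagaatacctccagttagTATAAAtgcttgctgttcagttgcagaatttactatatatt
H2bc18, chr3:96269450-96269699, plus strand: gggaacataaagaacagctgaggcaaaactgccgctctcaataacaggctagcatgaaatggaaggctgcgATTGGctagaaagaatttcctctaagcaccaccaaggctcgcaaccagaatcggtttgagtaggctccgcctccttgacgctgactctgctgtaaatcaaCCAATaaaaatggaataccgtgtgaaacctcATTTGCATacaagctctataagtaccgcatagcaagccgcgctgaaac
H3c15, chr3:96239128-96239377, minus strand: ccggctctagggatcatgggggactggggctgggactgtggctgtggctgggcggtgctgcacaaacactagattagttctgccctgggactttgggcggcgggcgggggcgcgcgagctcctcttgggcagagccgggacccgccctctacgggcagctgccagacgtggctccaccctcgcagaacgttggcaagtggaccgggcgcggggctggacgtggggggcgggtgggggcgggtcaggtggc
H4c3, chr13:23698459-23698708, minus strand: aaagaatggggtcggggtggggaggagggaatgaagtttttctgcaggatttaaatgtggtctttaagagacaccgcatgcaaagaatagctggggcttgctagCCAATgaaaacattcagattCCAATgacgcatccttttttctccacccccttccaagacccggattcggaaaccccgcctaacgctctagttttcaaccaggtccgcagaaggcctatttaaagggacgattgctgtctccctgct

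The 4 windows differ in these motifs. Counting back from the gene start, H2ac4 held all 3, with TATAAA starting at -41, CCAAT at -78, its reverse complement at -97 and the octamer's reverse complement at -129. H2bc18 held the octamer at -48 and CCAAT at -79, with a reverse complement of CCAAT at -179. H4c3 held CCAAT at -126 and -146, and H3c15 held none of the 3. The table had windows for 52 of the 57 member genes, 53 windows in all. Of these, 81.1% held CCAAT against 33.8% of the 32851 windows of all genes, 45.3% held TATAAA against 12.4%, and 24.5% held the octamer against 1.60%. The octamer was found in 7 of 15 H2B and 6 of 17 H2A windows and in 0 of 10 H3 and 0 of 11 H4 windows. Windows of 9 H2A and H2B neighbours on opposite strands overlapped by 163 to 248 bases, so their motifs are partly the same bases counted for both genes. A match is a description of these letters and not of a bound site.

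No histone probe set passed the threshold, and the differences that were seen were small and mostly in 1 direction. Of the 44 probe sets, 0 had a limma adjusted p under 0.05, where 0.224% of all probe sets did. At an unadjusted p under 0.05, 10 were higher and 0 were lower with FOG1, while 5.55% of all probe sets were higher and 6.94% lower by that rule. Of the 17315 probe sets at or above the median signal, where 39 members lay, 1401 were higher and 1151 lower by that rule. The log2 change was above 0 for 39 of 44, compared with 46.2% of all probe sets and 9461 of those 17315. All 3 FOG1 arrays lay above all 3 GFP arrays for 22 of 44, where 9.13% of all probe sets and 14.2% of those at or above the median signal did so. The reverse held for 0 of 44, where 10.5% of all and 9.78% of those at or above the median signal did so, and groups stood apart in either direction for 19.6% of all probe sets. The several-gene probe sets mostly list the same genes as each other, and they list annotation records of many 1-gene probe sets. These therefore cannot be taken as 44 separate measurements. Whether their probes share sequence was not checked. Without FOG1 replicate 2 the count at an unadjusted p under 0.05 was 6 rather than 10, while the share of all probe sets higher by that rule was 3.89%, and 38 of 44 were above 0.

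The 1-gene probe sets showed a median log2 change of 0.08, against -0.01 for all probe sets. Without FOG1 replicate 2 the 1-gene median was 0.04. Of the 22, 19 were above 0, beside 46.2% of all probe sets and 9461 of the 17315 at or above the median signal. All FOG1 arrays lay above all GFP arrays for 11 of 22. That held for 9.13% of all probe sets and 14.2% of those 17315. Array by array, the median difference of these 22 from the mean of the GFP arrays was 0.05, 0.10 and 0.10 on FOG1 replicates 1, 2 and 3. On the GFP arrays it was -0.0014, -0.0081 and 0.0061. All 3 FOG1 medians were thus higher than any GFP median, with FOG1 replicate 1 closest to the controls. FOG1 replicate 1 was the highest of its group for 3 of the 22, FOG1 replicate 2 for 10 and FOG1 replicate 3 for 9. Over all 34760 probe sets the array medians on the same scale lay between -0.02 and 0.02.

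**Figure D1:**
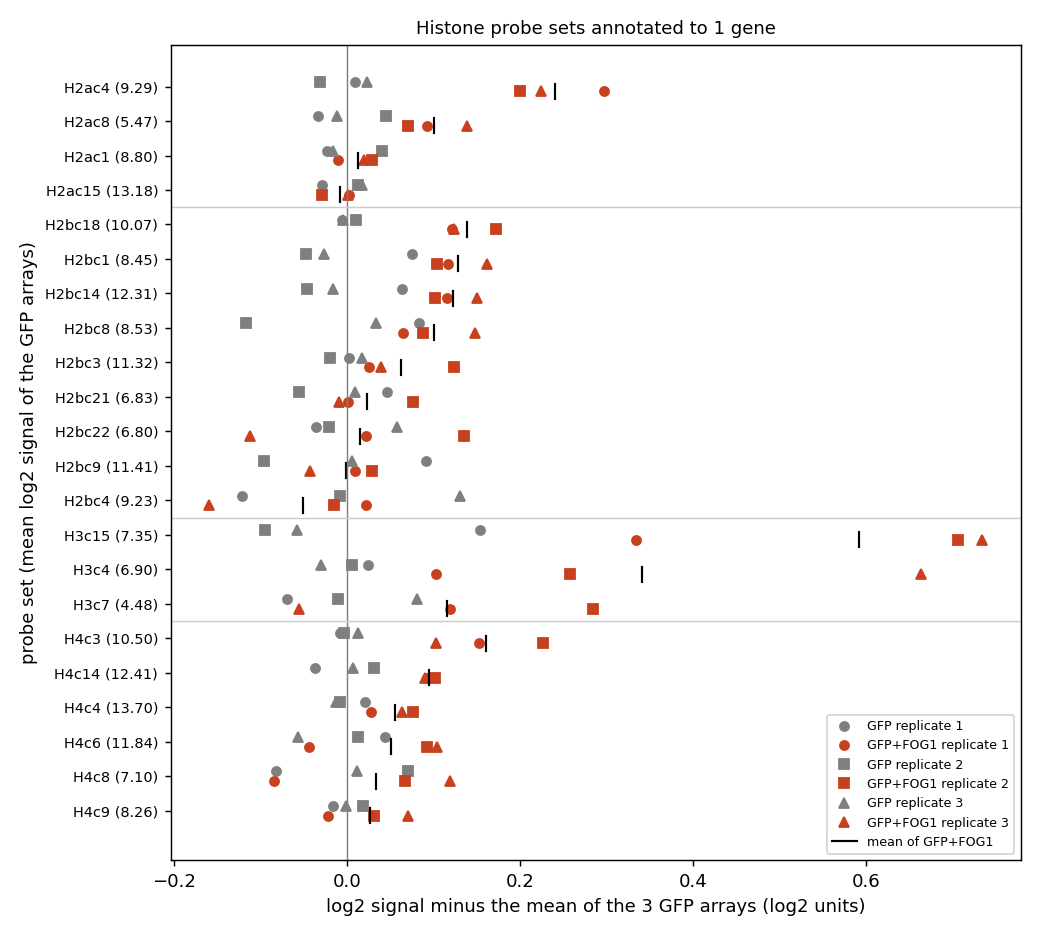
Log2 signal of each 1-gene histone probe set on each array minus the mean of the 3 GFP arrays, by core type (H2A, H2B, H3 and H4 from top to bottom). Grey symbols are GFP arrays, red symbols FOG1 arrays, shapes mark replicates, black ticks mark FOG1 means, and the GFP mean signal stands in brackets. H3c15 and H3c4 reach furthest to the right, and for 11 of 22 all red symbols lie right of all grey ones. The FOG1 arrays stood above the GFP arrays in this way for 9.13% of all probe sets.

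The H2A genes were led by H2ac4, whose product is a canonical H2A. Its signals were 9.30, 9.26 and 9.32 on the GFP arrays and 9.59, 9.49 and 9.52 on the FOG1 arrays. The groups did not overlap, and FOG1 replicate 1 was the highest. The log2 change of 0.24 had an SE of 0.047 and a 95% interval of 0.13 to 0.35. It had the smallest p of the members, with an adjusted p of 0.170 in limma. H2ac8 had values of 5.44, 5.52 and 5.46 with GFP and 5.57, 5.55 and 5.61 with FOG1, a log2 change of 0.10 (limma adjusted p = 0.43) at a low signal. H2ac15 gave 13.18 ± 0.03 and 13.17 ± 0.02 (SD, n = 3 per group), so its interval of -0.11 to 0.09 allowed only small differences either way. H2ac1, known as the testis H2A variant TH2A, had a log2 change of 0.01 with an interval of -0.09 to 0.12.

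H2B was the core type with the most genes of its own. H2bc18, of the chromosome 3 cluster, gave 10.07, 10.08 and 10.07 on the GFP arrays and 10.20, 10.25 and 10.20 on the FOG1 arrays. The GFP arrays agreed closely and every FOG1 array lay above them, with 0.14 higher on average (log2 scale, SE 0.042; limma adjusted p = 0.298). H2bc14 stood at 12.38, 12.27 and 12.30 with GFP and 12.43, 12.42 and 12.46 with FOG1, a log2 change of 0.12 (limma adjusted p = 0.38). H2bc1, known as the testis variant TH2B, stood at 8.53, 8.40 and 8.42 against 8.57, 8.56 and 8.61, a log2 change of 0.13 (limma adjusted p = 0.39). For both genes GFP replicate 1 came nearest to the FOG1 arrays. H2bc3 also had groups that did not overlap, with a log2 change of 0.06. H2bc8 (0.10), H2bc21 (0.02), H2bc22 (0.01), H2bc9 (-0.0019) and H2bc4 (-0.05) had overlapping groups. H2bc4 was the lowest of the 1-gene members, at 9.23 ± 0.13 with GFP and 9.18 ± 0.10 with FOG1.

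Among the divergent neighbours of which both genes had a probe set of their own, H2ac8 and H2bc8 each had a log2 change of 0.10. H2ac1 and H2bc1, whose 250-base windows overlap by 220 bases, had changes of 0.01 and 0.13.

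The H3 genes held the largest differences of the 1-gene probe sets. H3c15, which encodes an H3 of the chromosome 3 cluster, gave 7.50, 7.25 and 7.29 on the GFP arrays and 7.68, 8.06 and 8.08 on the FOG1 arrays. Every FOG1 array was above every GFP array, but GFP replicate 1 and FOG1 replicate 1 lay only a short way apart. The mean was 7.35 ± 0.13 with GFP and 7.94 ± 0.22 with FOG1 (SD, n = 3 per group), a 1.51-fold difference (log2 change 0.59, SE 0.125, 95% interval 0.29 to 0.89) that did not pass (limma adjusted p = 0.191). H3c4, of chromosome 13, gave 6.92, 6.90 and 6.87 with GFP and 6.998, 7.15 and 7.56 with FOG1, with FOG1 replicate 3 well above the rest. Its log2 change of 0.34 (limma adjusted p = 0.39) rested largely on FOG1 replicate 3, without which it was 0.18. H3c7 had the lowest signal of all members, 4.48 ± 0.08 with GFP and 4.59 ± 0.17 with FOG1, and overlapping groups.

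Probe sets that list the same H3 records gave unlike values. The probe sets of H3c15 and H3c4 are each annotated by a single cDNA record and by 0 RefSeq messenger RNAs. The record of H3c15 is also listed by a shared H3 probe set (10494405, H3 shared set 9) with signals of 13.76, 13.75 and 13.72 on the GFP arrays and 13.75, 13.76 and 13.77 on the FOG1 arrays. There the log2 change was 0.02 with an interval of -0.08 to 0.12, which does not meet the interval of H3c15's own probe set. The record of H3c4 is listed by 7 of the 9 shared H3 probe sets, with log2 changes from -0.03 (H3 shared set 3) to 0.85 (H3 shared set 1). H3 shared set 9 is annotated to 12 H3 genes, so it does not measure H3c15 alone. Signals of H3 shared set 9 lay near the highest value on any array, 14.07, and whether the scale is compressed there was not tested.

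The H4 genes all had log2 changes above 0, with a median of 0.05 over 6. H4c3 gave 10.50, 10.50 and 10.52 on the GFP arrays and 10.66, 10.73 and 10.61 on the FOG1 arrays. The groups did not overlap, and the log2 change was 0.16 (SE 0.049, 95% interval 0.04 to 0.28; limma adjusted p = 0.302). H4c14, of chromosome 3, gave 12.37, 12.44 and 12.42 against 12.50, 12.51 and 12.50, a log2 change of 0.09 (limma adjusted p = 0.42). H4c4 had the brightest 1-gene probe set, at 13.70 ± 0.02 with GFP and 13.76 ± 0.03 with FOG1, and its groups did not overlap. H4c6 (0.05), H4c8 (0.03) and H4c9 (0.03) had overlapping groups, and in each FOG1 replicate 1 lay within the GFP values or below them.

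The probe sets shared by several genes had a median log2 change of 0.06. Of the 22, 20 were above 0, beside 46.2% of all probe sets and 9461 of the 17315 at or above the median signal. All FOG1 arrays lay above all GFP arrays for 11. That held for 9.13% of all probe sets and 14.2% of those 17315. The median difference of the 22 from the GFP mean was 0.034, 0.076 and 0.079 on FOG1 replicates 1, 2 and 3. On the GFP arrays it was 0.024, -0.0037 and -0.020, so GFP replicate 1 came close to FOG1 replicate 1. The several-gene sets are named here by core type and numbered in the order of their identifiers. The 9 H3 sets list the same 12 H3 genes, 4 of the 5 H4 sets list the same 11 H4 genes, and 6 of the 7 H2B sets list 14 or 15 genes, mostly H2B. The seventh H2B set lists H2bc6 with the linker histone gene H1f4, and the remaining set lists 19 symbols, mostly of H2A genes, with H3c4 and H2ax among them. Of the 22, 14 had a mean signal over 12.

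H3 shared set 1 (probe set 10403941) had the largest difference of all members. Its signals were 5.75, 6.20 and 6.39 on the GFP arrays and 7.11, 6.75 and 7.03 on the FOG1 arrays. The groups did not overlap, and the GFP arrays spread more widely than for any other member. The log2 change was 0.85, a 1.80-fold difference (SE 0.176, 95% interval 0.43 to 1.28; limma adjusted p = 0.185). Its mean signals, 6.11 with GFP and 6.96 with FOG1, lay below the median of all values, 6.999. The other shared H3 sets, which list the same 12 genes, had log2 changes of -0.03 to 0.16 at GFP means of 9.76 to 13.74. H4 shared set 3 (10408074) gave 8.85, 8.84 and 8.72 against 8.97, 9.15 and 9.05, a log2 change of 0.25 (limma adjusted p = 0.25). H3 shared set 4 (10408083) gave 12.66, 12.56 and 12.59 against 12.73, 12.76 and 12.80, a log2 change of 0.16 (limma adjusted p = 0.290). For both, every FOG1 array was above every GFP array. H3 shared set 8 had a log2 change of 0.13 with groups that overlapped, and H3 shared set 2 one of 0.11 with groups that did not.

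The brightest shared sets had small differences. H4 shared set 5 stood at 13.48 ± 0.01 with GFP and 13.50 ± 0.01 with FOG1, and H3 shared set 5 at 13.46 ± 0.02 and 13.51 ± 0.03. Of the 18 members with a mean signal over 12, 10 had all FOG1 arrays above all GFP arrays, where 17.4% of all probe sets that bright did, and 0 had the reverse, where 13.1% did. Their median log2 change was 0.06 and the highest was 0.16, beside a median of 0.01 for the 533 probe sets of that brightness. The 26 dimmer members had a median of 0.10. The spread between replicates was smaller for members than for most probe sets, with a median pooled SD of 0.047 for 1-gene and 0.046 for several-gene sets against 0.083 for all. Leaving aside H3c15, H3c4 and H3 shared set 1, the highest upper bound of a member's 95% interval was 0.41 (H4 shared set 3).

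**Figure D2:**
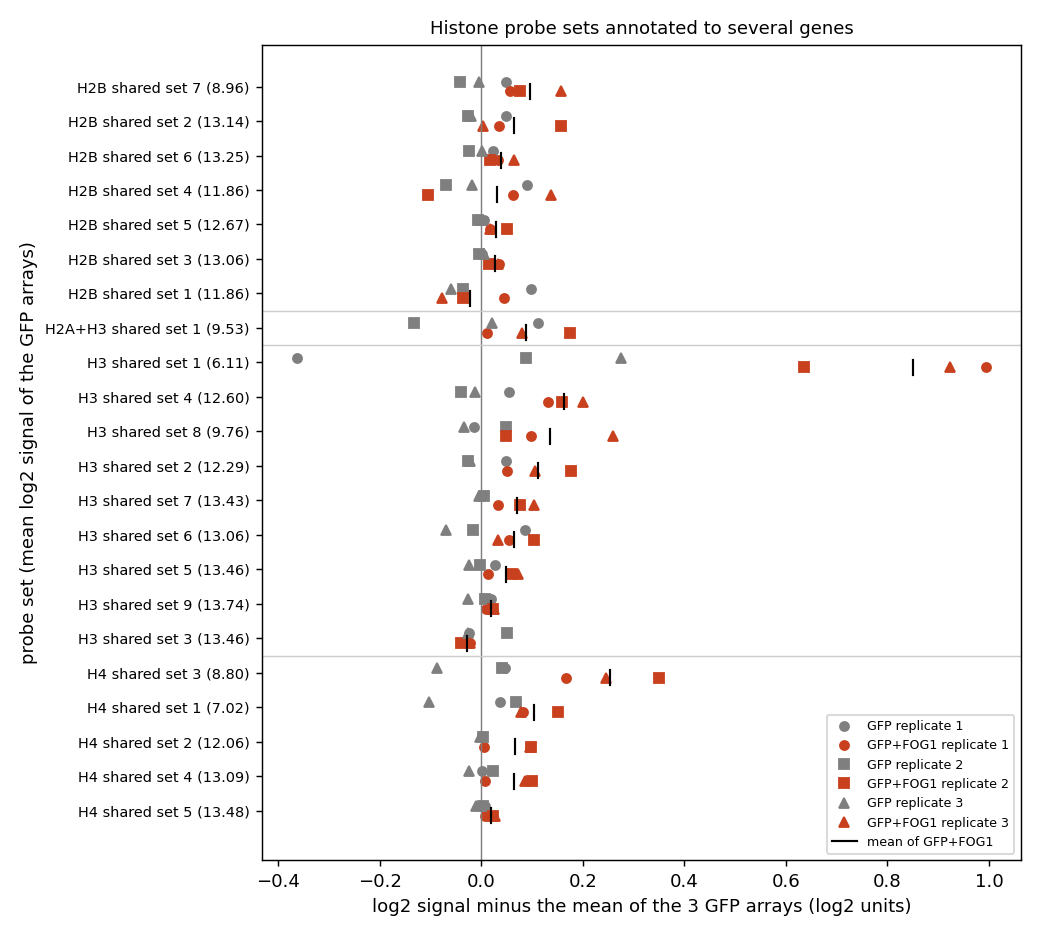
Log2 signal of each several-gene histone probe set on each array minus the mean of the 3 GFP arrays, drawn as for the 1-gene probe sets. H3 shared set 1, at the right, has a log2 change of 0.85, and most other sets lie within 0.2 log2 units of the GFP mean.

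**Figure D3:**
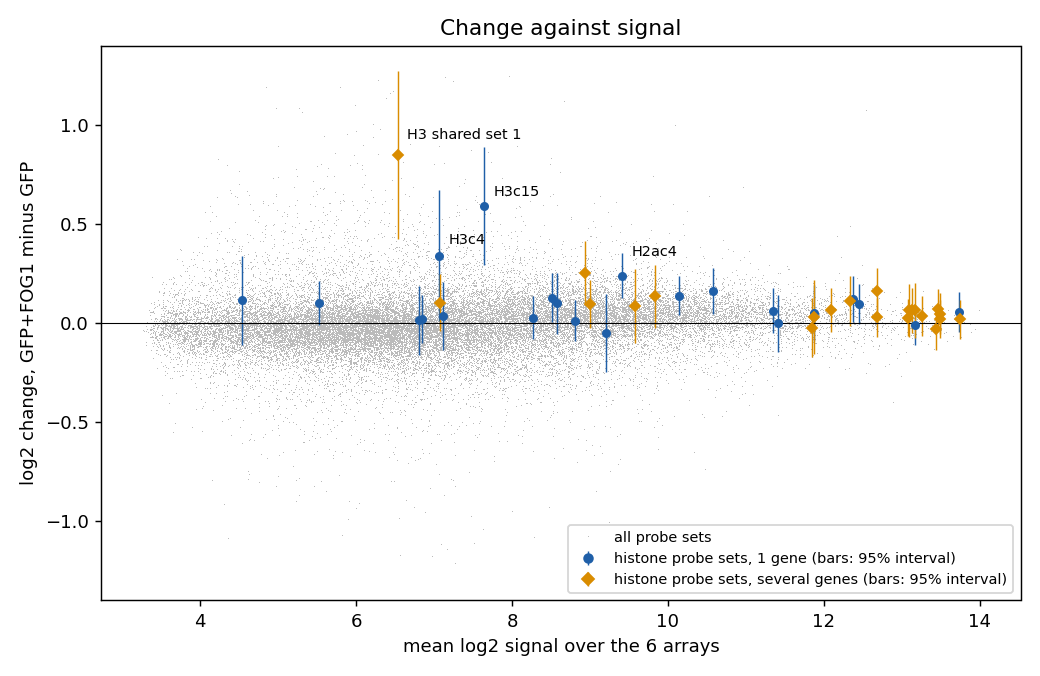
Log2 change (GFP+FOG1 minus GFP) against the mean log2 signal of the 6 arrays for all probe sets (grey) and for histone probe sets of 1 gene (blue) and several genes (orange), with 95% intervals from limma. The 16 probe sets with changes beyond 1.4 in either direction lie outside the plot. Histone changes of 0.24 or more stand at signals below 10 and the brightest members lie close to 0.

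Other histone genes differed by similar amounts, and none passed. Of 5 measured linker histone genes of the chromosome 13 cluster, 3 were above 0, with H1f3 at 0.18, H1f5 at 0.13 and H1f1 at 0.13, while H1f2 was at -0.09 and the testis gene H1f6 at -0.05. The former Hist3h and Hist4h genes H2aw, H4f16 and H2bu2 had log2 changes of 0.07, 0.07 and 0.0051. Of 9 measured variants made outside S phase as well, 6 were above 0 and the median was 0.05. H2az2, a variant found at promoters, was at 0.18 and H2ax, the variant phosphorylated at DNA breaks, at 0.15, while Cenpa, the H3 of centromeres, was at 0.11 and H2aj at 0.13 (limma adjusted p = 0.28 to 0.41). Macroh2a2 was the lowest, at -0.25 (limma adjusted p = 0.53).

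Genes that transcribe and process histone messenger RNA had a median log2 change of 0.10 over 19 measured genes. None passed the threshold, 16 were above 0, and at an unadjusted p under 0.05 4 were higher and 0 lower. Of all probe sets, 5.55% were higher and 6.94% lower by that rule. At or above the median signal, where 18 of the 19 lay, 1401 of 17315 probe sets were higher and 1151 lower. Of the 4, Slbp, which binds the stem-loop, went from 9.998 ± 0.078 with GFP to 10.24 ± 0.07 with FOG1 (log2 change 0.24; limma adjusted p = 0.24). Npat, the activator of histone gene transcription, had a log2 change of 0.22, and Casp8ap2, which encodes the processing factor FLASH, one of 0.25. Ccne2, a cyclin E that activates CDK2, the kinase of NPAT, had one of 0.27. In all 4, which were picked for their small p, the groups did not overlap. Over the whole list all FOG1 arrays lay above all GFP arrays for 8 of 19, and 0 had the reverse. Of all probe sets 9.13% were higher in this way, and 14.2% of those at or above the median signal. The U7 particle genes Lsm10 (-0.12) and Lsm11 (-0.0047), the cleavage nuclease gene Cpsf3 (0.13) and Eri1, which trims the stem-loop end (0.09), had larger p.

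Histone chaperones, which carry histones to and from DNA, had a median of 0.07 over 22 measured genes, with 20 above 0. None passed, and at an unadjusted p under 0.05 4 were higher and 1 was lower, beside 5.55% and 6.94% of all probe sets. Tonsl, which binds new H4 at replication forks, was at 0.16, Atrx, a remodeller that places H3.3, at 0.16 and Ubn1 of the HIRA complex at 0.10, with Set at -0.21 in the other direction (limma adjusted p = 0.30 to 0.38). Nasp, the carrier of soluble H3 and H4, was at 0.17 with overlapping groups, and the CAF-1 genes Chaf1a and Chaf1b were at 0.08 and 0.07. Of 29 measured S phase replication genes, 28 were above 0 with a median of 0.11 and 17 with groups that did not overlap in that direction, beside 14.2% of all probe sets at or above the median signal, where all 29 lay. None passed, while 8 were higher and 0 lower at an unadjusted p under 0.05 (limma), beside 5.55% and 6.94% of all probe sets. At or above the median signal, where the 22 chaperone genes also lay, 1401 of 17315 probe sets were higher and 1151 lower. The smallest p values of the S phase genes belonged to the helicase gene Mcm3 (0.26), Tipin of the fork protection complex (0.29), Gins1 (0.20) and the clamp loader gene Rfc4 (0.17). Whether these genes and the histone genes differ for a shared reason was not tested.

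**Figure D4:**
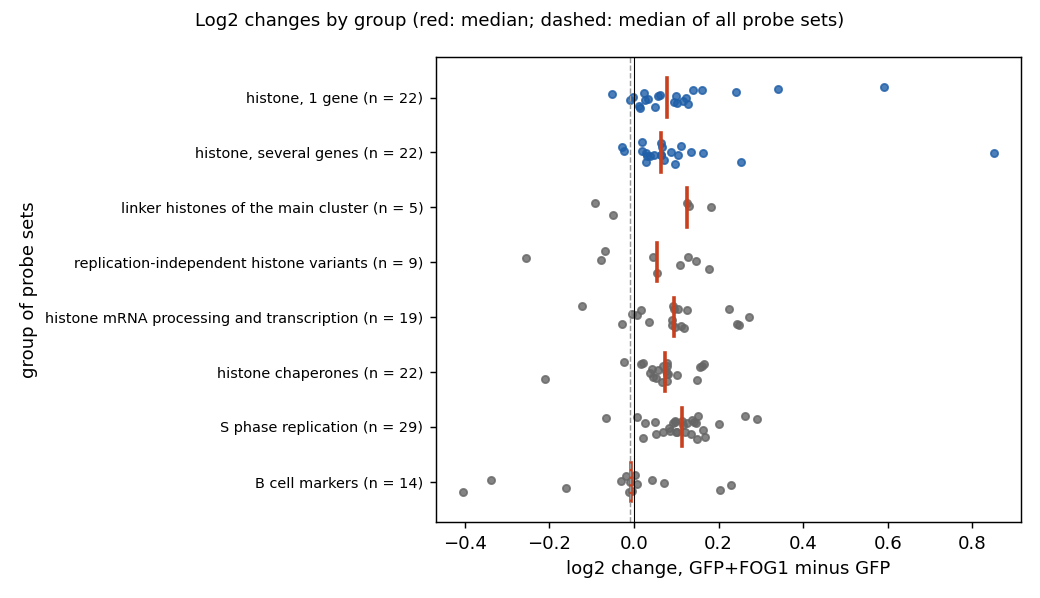
Log2 changes (GFP+FOG1 minus GFP) of the histone probe sets (blue) and of the listed genes (grey, at each gene's brightest 1-symbol probe set), with red lines at group medians and a dashed line at the median of all probe sets, -0.01. The medians of the histone, histone-processing, chaperone and S phase groups lie between 0.06 and 0.11 and that of the B cell markers at -0.01.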

How the data were processed

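The deposited values are log2 signals, 1 per probe set and array. The affy package is listed in the submitters' processing notes, without a version. Their background correction, normalization and probe summary were not stated there. The log2 scale was read from the values. Per the labels' protocols, 100 ng of total RNA, isolated without DNase, was amplified per sample. Probe sets were named through the platform annotation, and all 57 member symbols were found by Entrez identifier in the RefSeq table of GRCm38.p6, with 0 changed. The test was limma's moderated fit (limma 3.58.1, R 4.3.3) with no block and no filter, adjusted by Benjamini-Hochberg over all 34760 probe sets at 0.05, and the fit was tested on simulated data. List genes were read at their brightest 1-symbol probe set. The members, lists and naming rule (every 1-gene member, the 5 several-gene sets with the smallest p and the 3 brightest, and up to 4 genes a list) were chosen with earlier results of these data known. H2aw was moved off the variant list after the data were seen. Further genes named beside the rule were chosen for their role. With 3 arrays per group, their number limits the precision. Figures used matplotlib 3.10.9 in Python 3.11.15.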

Additional observations from a re-analysis of the deposited data

How the results depend on the processing

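No histone probe set passed under any of the 12 alternatives (limma), namely quantile normalization, median centring, leaving out dim probe sets, testing 1-symbol probe sets only, a variance trend with robust estimation, the replicate number as a block, and leaving out each of 6 arrays. Of 30 named histone probe sets, 23 kept their direction in all settings run. The median log2 change of 1-gene sets was 0.104 after median centring and 0.0391 to 0.0968 without 1 array, and that of several-gene sets was 0.0901 after centring. Centring shifts every log2 change by the same amount, and the median over all probe sets went from -0.0103 to 0.0152. Directions turned only near 0: H2ac15 was 0.0018 after quantile normalization and 0.0172 after centring, H2bc9 0.0236 after centring, and H3 shared set 9 -0.0023 after quantile normalization. Without 1 array, H2ac15 ranged from -0.0232 to 0.0019, H2bc9 from -0.0501 to 0.0435, H2bc4 from -0.112 to 0.0142, H2bc22 from -0.0455 to 0.0784, H2bc21 from -0.0051 to 0.0459 and H4c8 from -0.0091 to 0.0931. Of all probe sets 78 passed, but 9 with the replicate block, a fit that used all 6 arrays. Without 1 array 17 to 38 passed, in fits that used fewer samples. Of the listed genes 1 passed (Itgam), but 2 without dim probe sets, with 1-symbol sets only and with the variance trend, 0 with the replicate block and 0 to 1 without 1 array. Arrays of the same number showed correlations of -0.068, 0.0084 and -0.040 in their deviations from the group means. With 3 arrays per group, these values cannot decide whether arrays of the same number shared a culture or a processing day. With the block, 7 histone probe sets were higher at an unadjusted p under 0.05, beside 5.01% of all probe sets, and 14 with the variance trend, beside 6.47%. Apart from the common shift by centring, the cause of these moves was not tested. Signals near background or near the top of the scale can understate a difference.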

Other observations

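The 1-gene members differ in the span of their RefSeq gene, a property that was looked at after their values were seen. H2bc21, H2bc4 and H2bc22 span 2667, 8282 and 14079 bases in the RefSeq table, while the other 19 span 375 to 903 bases. The 3 long genes had log2 changes of 0.02, -0.05 and 0.01, with overlapping groups in each. The other 19 had a median of 0.10, and in 11 of them all FOG1 arrays lay above all GFP arrays. That held for 9.13% of all probe sets and 14.2% of those at or above the median signal. All 3 long genes are H2B genes, so the split by span is partly one by core type. The 9 H2B genes with a probe set of their own had a median of 0.06. No test was made of this split, which sets 3 genes against 19.

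By promoter letters the 1-gene members with a window of 250 bases overlapped widely. The 8 with the octamer had a median log2 change of 0.11 and a range of 0.01 to 0.24. The 10 without it had a median of 0.04 and a range of -0.0084 to 0.59. For TATAAA the median was 0.06 in the 11 with it and 0.12 in the 7 without it, the opposite order. For CCAAT it was 0.10 in the 14 with it and 0.04 in the 4 without it. None of these splits was tested.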
